A study of Mus musculus with 278 samples.

Results

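Milk protein genes were followed cell by cell in single-cell RNA-seq (scRNA-seq) data from the mouse mammary gland. The genes were 8 members of a list given by name, found by matching Entrez IDs to symbols, and all 8 were present among the 25135 genes kept out of 27179 IDs. They were the caseins Csn1s1, Csn2, Csn1s2a, Csn1s2b and Csn3, the whey protein genes Wap and Lalba, and Glycam1. Cells of FVB/NJ female mice were isolated in Fluidigm C1 chips, whose chambers hold a cell each, and every cell made its own library. From adult mice there were 112 sorted basal cells and 43 sorted luminal cells. A further 123 cells came from pregnant mice, which the study's methods place at mid-pregnancy, and were sorted as epithelium without parting the layers. No treatment or genetic change was applied to any group, and the labels name neither the animals nor their ages. Of the 278 cells, 222 held 50000 or more reads in kept genes and were used, of which 85 were adult basal, 41 adult luminal and 96 pregnancy cells. Stage and sort were changed together, so that pregnancy and the mix of cell types in the unsorted epithelium cannot be told apart.

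Caseins carry calcium and phosphate in micelles. Csn3 encodes kappa-casein, which coats and stabilises the micelle, and Csn2 encodes beta-casein. Csn1s1 encodes an alpha-S1 casein, and Csn1s2a and Csn1s2b encode alpha-S2-like caseins. Wap encodes whey acidic protein, and Lalba encodes alpha-lactalbumin, the regulatory subunit that turns the galactosyltransferase B4GALT1 into lactose synthase. Glycam1 encodes a secreted mucin-like glycoprotein found in milk. Transcription of these genes in secretory luminal (alveolar) cells is driven mainly by prolactin through its receptor, JAK2 and STAT5, together with glucocorticoid, and this program is switched on during pregnancy ahead of secretion at birth.

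The caseins lay in 1 stretch of chromosome 5 in the mm10 (GRCm38) build, in the order Csn1s1 (chr5:87666208-87682578), Csn2 (chr5:87692619-87699429), Csn1s2a (chr5:87774450-87788798), Csn1s2b (chr5:87808121-87824421) and Csn3 (chr5:87925579-87932550). Wap lay on chromosome 11 (chr11:6635483-6638654), and Lalba (chr15:98480400-98482934) and Glycam1 (chr15:103562759-103565081) were far apart on chromosome 15. STAT5 binds the motif TTCNNNGAA, which reads the same on both strands. It was searched for in the 250 bases before the annotated start, for the 6 members with a RefSeq promoter entry (GRCm38.p6). It was found in 3 of these, Csn1s1, Csn2 and Glycam1, beginning 100, 93 and 145 bases before the start, and in 7.02% of all 32851 promoter windows. A match is a run of letters, not a measured binding site, and no binding was assayed here. The 150 bases before the start are shown 5′ to 3′ for the 3 genes with the motif, in capitals, and for Csn1s2a, Wap and Lalba, where these letters were not in the window. For Csn2 and Wap the RefSeq start lay a few bases inside the gene as counted. For Lalba the whole window lay inside the counted gene, whose annotated start is farther upstream.
Csn1s1 (chr5:87666058-87666207, plus strand): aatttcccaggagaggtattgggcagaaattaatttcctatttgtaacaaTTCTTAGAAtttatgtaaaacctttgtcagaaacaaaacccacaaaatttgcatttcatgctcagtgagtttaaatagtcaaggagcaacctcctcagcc
Csn2 (chr5:87699426-87699575, minus strand): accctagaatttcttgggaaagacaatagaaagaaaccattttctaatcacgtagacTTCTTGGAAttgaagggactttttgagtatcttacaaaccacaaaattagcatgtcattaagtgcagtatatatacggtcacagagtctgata
Glycam1 (chr15:103565082-103565231, minus strand): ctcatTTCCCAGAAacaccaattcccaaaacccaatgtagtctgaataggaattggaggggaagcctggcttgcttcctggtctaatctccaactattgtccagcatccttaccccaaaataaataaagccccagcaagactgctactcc
Csn1s2a (chr5:87774300-87774449, plus strand): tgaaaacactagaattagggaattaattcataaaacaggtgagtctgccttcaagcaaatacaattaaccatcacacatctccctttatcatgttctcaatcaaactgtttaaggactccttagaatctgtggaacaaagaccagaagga
Wap (chr11:6638650-6638799, minus strand): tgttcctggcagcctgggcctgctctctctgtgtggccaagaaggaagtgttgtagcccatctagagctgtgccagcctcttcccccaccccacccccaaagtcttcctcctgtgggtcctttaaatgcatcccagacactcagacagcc
Lalba (chr15:98482684-98482833, minus strand): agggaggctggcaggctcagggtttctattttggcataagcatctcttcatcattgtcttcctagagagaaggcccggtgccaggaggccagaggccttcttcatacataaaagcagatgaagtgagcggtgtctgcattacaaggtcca

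Sequencing depth differed between groups, with medians of 378479 reads per used cell in adult basal (67170 to 1290736), 637857 in adult luminal (173150 to 1006261) and 215202 in pregnancy cells (53966 to 790397). Presence of a gene was therefore scored after thinning each cell to 50000 reads, and the unthinned number is given where it differs in a way that matters. Each group is 1 sample without replicates, so no test was run, and the 95% intervals are exact and cover counting error only, since reads carried no molecular identifiers. In an earlier look at these data, pregnancy cells with title numbers up to 55 (45 used) and above 55 (51 used) differed in milk gene content. The labels name no chip, animal or day that divides there, so values within each range are given beside the pooled ones. Of 10 basal and 10 luminal markers, the medians detected were 9 and 2 in adult basal, 0 and 8 in adult luminal and 8 and 7 in pregnancy cells. At least 3 fibroblast markers were detected in 6 adult luminal and 11 pregnancy cells, all 11 numbered up to 55. At least 3 endothelial markers were found in 2 and 10 cells, respectively, and at least 3 immune markers in 1 adult basal and 4 pregnancy cells, whereas no cell had as many adipocyte or erythroid markers. The part of these cells in the results below was not tested.

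Milk gene reads took a share of the transcriptome that spanned orders of magnitude between cells of the same group. Of the summed reads, the 8 genes held 0.000680% in the adult basal group (95% interval 0.000597 to 0.000771), 1.25% in the adult luminal group and 22.8% in the pregnancy group. The median adult basal cell held no milk read and the highest 0.0168%. Shares of adult luminal cells went from 0 to 8.62% around a median of 0.586%. Those of pregnancy cells went from 0 to 64.1% around a median of 6.79%. Adult basal cells therefore lay at the bottom of the scale, and the adult luminal and pregnancy groups overlapped over most of their range. Milk genes made up 10% or more of reads in 44 of 96 pregnancy cells and in none of the 41 adult luminal cells. No milk gene read was found in 53 adult basal cells, 6 adult luminal cells and 1 pregnancy cell (cell 56). Within pregnancy, the share of summed reads was 8.89% for title numbers up to 55 (median cell 2.58%, highest 29.2%) and 31.4% above 55 (median 18.9%, highest 64.1%).

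**Figure D1:**
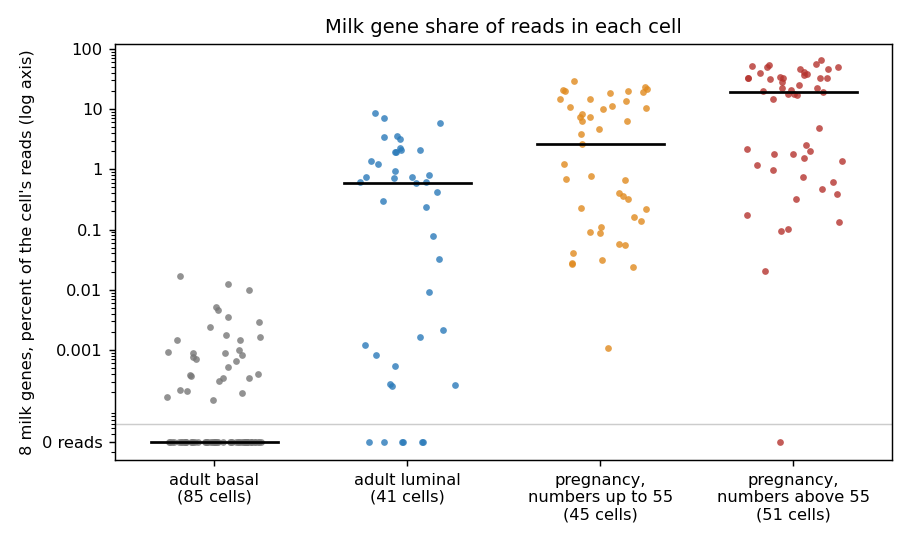
Share of each cell's reads in the 8 milk genes (percent, log axis, cells without a read on the bottom line) for 85 adult basal cells, 41 adult luminal cells and the pregnancy cells with title numbers up to 55 (45) and above 55 (51). Each point is a cell and the black bar is the median; the medians are 0, 0.586, 2.58 and 18.9%, and only pregnancy cells exceed 10%.

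Among the caseins, Csn1s2a, Csn2, Csn1s1 and Csn3 were abundant in both luminal and pregnancy cells, and Csn1s2b was rare. Levels per cell are given as CPM, the reads of a gene scaled to the kept reads of the cell (counts per 1e6). Csn1s2a reached 33146 CPM at most among adult luminal cells (lowest 0, median 2.70) and 253006 CPM among pregnancy cells (lowest 0, median 17252). Csn2 ranged from 0 to 33108 CPM (median 1.36) and from 0 to 142711 CPM (median 19942) in the same groups. Both genes were close to absent from the median adult luminal cell yet reached a few percent of reads in the richest. For Csn1s1, adult luminal cells spanned 0 to 26250 CPM (median 1182) and pregnancy cells 0 to 118208 CPM (median 10685). Csn3 ranged from 0 to 17226 CPM (median 442) and from 0 to 84652 CPM (median 7275). Csn1s1 and Csn3 were thus the members with a sizeable level in the median adult luminal cell. Csn1s2b had a median of 0 in both groups, with highest values of 538 and 7410 CPM.

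The whey protein genes and Glycam1 were ordered differently. Lalba reached 3898 CPM in adult luminal cells and 3634 CPM in pregnancy cells, with medians of 0 and 66.5 CPM. Wap reached only 198 CPM in adult luminal cells against 22410 CPM in pregnancy cells, where the median was 252 CPM. Glycam1 had 1 read in all adult luminal cells together, in cell 2, and ranged from 0 to 46743 CPM in pregnancy cells (median 2870). The highest adult luminal Lalba level was that of cell 17 (751 of 192670 reads), which was under the study's minimum number of genes. Cell 13, with the most Lalba reads of that group, had 791 of 630372. The highest Lalba levels of both groups were thus alike through cell 17 alone, whereas those of Wap and Glycam1 were not alike.

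Per kilobase of gene, which allows genes to be compared, summed reads of pregnancy cells were highest for Csn1s2a (93844 RPKM, CPM per kilobase of counted gene), followed by Csn2 (49625), Csn1s1 (28713), Glycam1 (19607), Csn3 (17467), Wap (7442), Lalba (1008) and Csn1s2b (639 RPKM). In adult luminal cells the order was Csn1s2a (3030 RPKM), Csn1s1 (2866), Csn2 (2511), Csn3 (1669), Lalba (210), Wap (17.3), Csn1s2b (11.7) and Glycam1 (0.0644). The first 3 of the adult order lay close together and changed places when single cells were left out, since 1 cell held 26.2% of Csn1s2a reads (cell 38) and another 25.5% of Csn1s1 reads (cell 8).

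Ratios of counts summed over all pregnancy cells placed the 8 members higher than in adult luminal cells, though not all of them within each range of title numbers. A log2 ratio of 2 or more was reached by 8 of 8 members in that comparison, where 15.8% of the 14864 genes compared did so, and by all 7 members with a ratio between adult luminal and adult basal cells, where 22.8% of 14355 genes did so. The members' median log2 ratios were 4.62 and 10.44, the latter with Wap and Lalba at a lower bound, beside medians of -0.40 and 0.32 over all genes compared. From adult luminal to pregnancy cells, the log2 ratio was 3.32 for Csn1s1 (95% interval 3.32 to 3.33), 4.30 for Csn2 (4.29 to 4.32), 4.95 for Csn1s2a (4.94 to 4.96) and 3.39 for Csn3 (3.38 to 3.40). It was lowest for Lalba, at 2.27 (2.21 to 2.32), and higher for Wap, at 8.75 (8.56 to 8.93). For Glycam1 it was 18.21 (15.74 to 23.52), with a single read in the denominator, and at least 16.59 without the cell that held it. For Csn1s2b it was 5.77 (5.57 to 5.96). These values are far beyond counting error, but single cells moved them by more than their intervals. Without the adult luminal cell with the most reads of the gene, Csn1s1 was at 3.69, Csn2 at 4.58, Csn1s2a at 5.35, Csn3 at 3.61 and Lalba at 2.56. Some members rest on few cells. Adult luminal cell 32 held 99.1% of its group's Csn1s2b reads. Without it 2 reads remained and the log2 ratio of Csn1s2b was 12.54 (10.69 to 15.59), without pregnancy cell 101 it was 4.77, and without adult luminal cell 11 that of Wap was 10.26. Scaling to reads outside the milk genes added 0.36 to every log2 ratio of this comparison, and TMM factors added 0.53. Between adult luminal and adult basal cells these shifts were 0.02 and -0.30.

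Within the ranges, a log2 ratio of 2 or more was reached by 4 of 8 members for cells numbered up to 55 (18.1% of 14544 genes did so) and by 8 of 8 above 55 (11.2% of 14118). Up to 55, Csn1s1 was at 1.91 (1.90 to 1.92), Csn3 at 1.89 (1.87 to 1.90), Csn1s2b at 0.43 (0.09 to 0.77) and Lalba at -1.76 (-1.91 to -1.61). The direction of Lalba therefore did not hold. Lalba had 45.4 CPM in the summed reads of pregnancy cells numbered up to 55 and 1165 CPM above 55, against 154 CPM in adult luminal cells. In the lower range it was therefore below the adult luminal level, while Csn1s1 (15248 and 56279 CPM, against 4058), Csn2 (31256 and 70533, against 2812), Csn1s2a (26088 and 123375, against 2788), Csn3 (9869 and 38975, against 2665), Wap (749 and 6293, against 9.75) and Glycam1 (5599 and 16346 CPM) were above it in both ranges. Csn1s2b had 12.1 and 782 CPM, against 8.98 CPM. Without the adult luminal cell with the most reads of the gene, the adult luminal level was 3149 CPM for Csn1s1 and 2291 for Csn3. It was 0.0819 CPM for Csn1s2b and 125 for Lalba. Against these levels Csn1s1, Csn3 and Csn1s2b up to 55 would pass a log2 ratio of 2, whereas Lalba would stay below the adult luminal level. The count of 4 members thus depended on single adult luminal cells.

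Adult basal cells held few milk reads. Of 85 cells at 50000 reads each, 6 held Csn1s1, 5 Csn1s2a, 4 Csn2 and 3 Csn3. Wap and Lalba had no read at any depth, and Csn1s2b and Glycam1 none after thinning, each of which allows a share of up to 3.53% of cells (3 counts of 85). The log2 ratio of adult luminal over adult basal cells was 10.44 for Csn1s1 (10.17 to 10.74), 11.97 for Csn2 (11.41 to 12.60), 11.21 for Csn1s2a (10.78 to 11.68), 10.43 for Csn3 (10.09 to 10.79) and 8.33 for Csn1s2b (5.83 to 13.64). For Wap and Lalba it was at least 6.86 and 10.84 on the log2 scale, with the adult basal sum set to 3 counts. Few cells decided the adult basal sums. Cell 74 held 73 of 104 Csn1s1 reads and cell 65 held 38 of 69 Csn3 reads, each with no other milk gene, whereas cell 88 had 28 milk reads over 6 members. The log2 ratio was 12.16 for Csn1s1 without cell 74, 11.58 for Csn3 without cell 65 and 12.70 for Csn2 without cell 88. For Csn1s2b it was at least 6.73 without cell 88, but 1.55 (-2.71 to 7.43) without adult luminal cell 32, from 2 reads over 1, which ends its call. For Wap it was at least 5.35 without adult luminal cell 11. Between adult luminal and adult basal cells, Glycam1 had 1 and 2 reads, which gives no ratio.

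Individual adult luminal cells expressed different subsets of the milk genes. The mix was described in the 26 adult luminal cells with 100 or more milk reads, as percent of the reads of the 8 genes. Csn1s1 ranged from 0 to 100% (median 33.9%), Csn3 from 0 to 100% (18.9%), Csn2 from 0 to 56.4% (12.7%), Csn1s2a from 0 to 47.8% (3.15%) and Lalba from 0 to 18.5% (median 0). Csn1s2b, Wap and Glycam1 had medians of 0 and reached 3.87, 1.60 and 0.488%. Each of the main caseins thus went from nothing to a large part of the milk transcripts. Per kilobase, the most abundant member was Csn1s1 in 12 cells, Csn3 in 7, Csn1s2a in 6 and Csn2 in 1. Cell 30 held 265 milk reads, all of Csn1s1, and cell 15 held 1832, all of Csn3. Cell 17 held 3319 reads of Csn3 and 751 of Lalba and none of the other 6 genes. Cell 9 was similar, with 3584 reads of Csn3, 114 of Lalba and 1 to 2 reads of each of Csn1s1, Csn2 and Csn1s2a. Cell 8 lay at the other end, with 25640 reads of Csn1s1, 6054 of Csn2, 2510 of Csn1s2a and 53 of Csn3. The 3 cells with the highest milk shares (cells 38, 28 and 3, at 5.95, 7.13 and 8.62%) all held the 4 abundant caseins, with 1608 to 18141 reads of each, and of these only cell 28 held Lalba (524 reads). Cells 15 and 17 were the only ones used here that were under the study's minimum number of genes.

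Pregnancy cells were more uniform. In the 84 pregnancy cells with 100 or more milk reads, Csn1s2a had a median of 32.5% of milk reads (quartiles 26.7 and 38.7%), Csn2 29.1% (19.1 and 35.3%), Csn1s1 17.4% (14.8 and 22.0%), Csn3 10.9% (7.77 and 13.3%) and Glycam1 5.04% (2.87 and 7.34%). Wap had a median of 0.691% (0.0621 and 1.90%), Lalba 0.224% (0.0321 and 0.521%) and Csn1s2b 0. Per kilobase, Csn1s2a was the most abundant member in 56 cells, Csn2 in 23, Glycam1 in 3 and Csn1s1 and Csn3 in 1 each. In adult luminal cells, by comparison, the quartiles for Csn1s1 were 15.9 and 56.1% and those for Csn3 3.95 and 54.4%. Medians were alike in both ranges of title numbers for Csn1s1, at 16.8 and 17.8%, and for Csn3, at 10.8 and 11.1%. The ranges differed in the balance of the leading caseins. Per kilobase, Csn1s2a led in 17 cells and Csn2 in 16 of the 36 cells numbered up to 55, against 39 and 7 of the 48 cells above 55. Exceptions occurred at low milk share, where pregnancy cell 14 held 599 reads of Csn3, 81 of Csn2 and none of the other members. Csn2 took 84.0% of milk reads in pregnancy cell 50, and Csn1s2a 74.3% in cell 37 and 72.0% in cell 86. Pregnancy and adult luminal cells were not matched for milk share here.

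**Figure D2:**
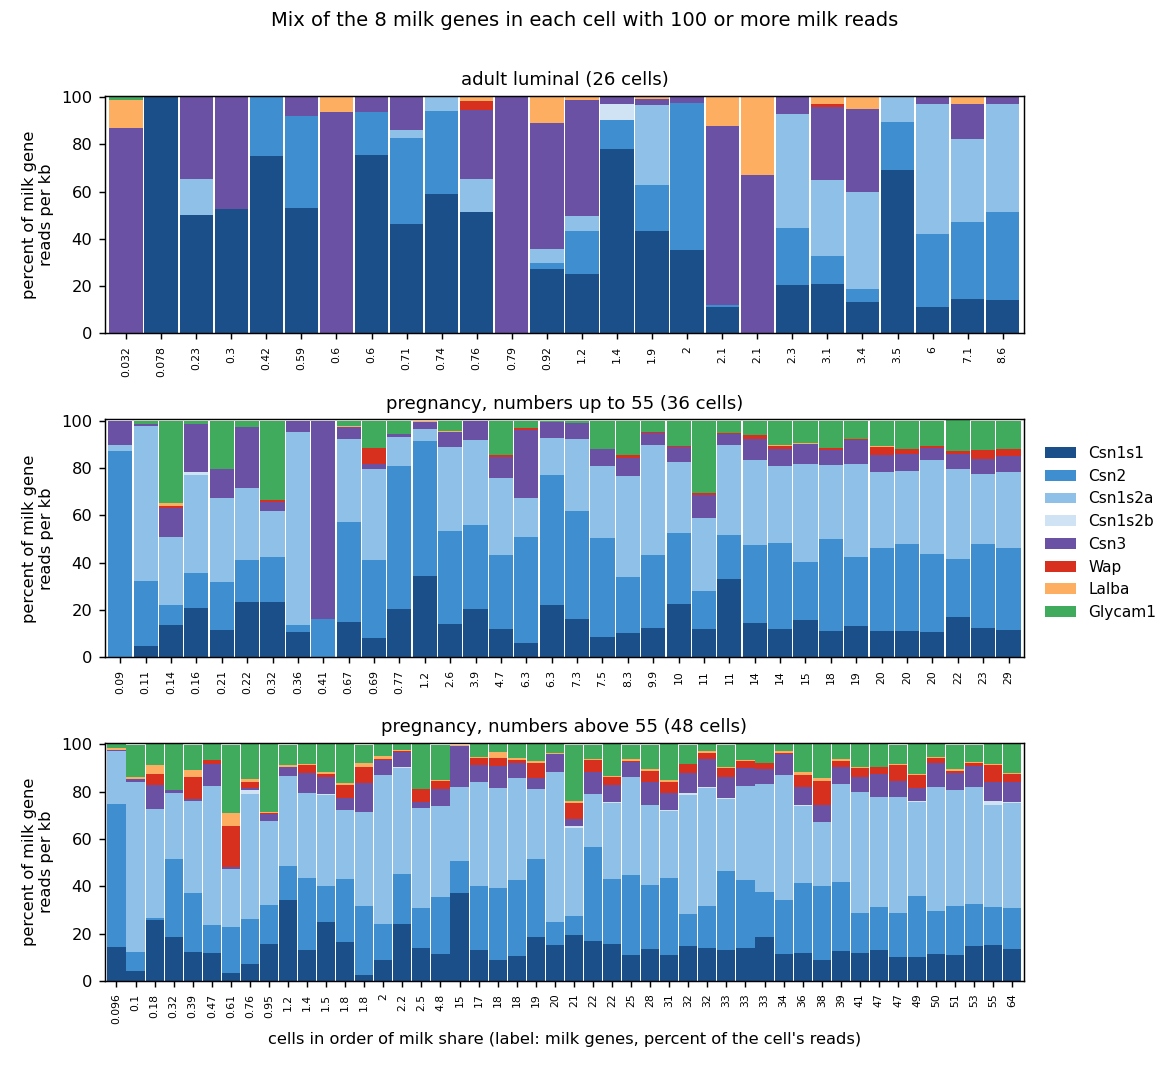
Mix of the 8 milk genes, as percent of their reads per kilobase, in each cell with 100 or more milk reads, for 26 adult luminal cells and for 36 and 48 pregnancy cells numbered up to 55 and above 55. Each bar is a cell, bars are in order of the cell's milk share (labels, percent of reads), and colours are genes. Csn1s1 and Csn3 vary from 0 to 100% between adult luminal cells, Csn2 up to 62.3% and Csn1s2a up to 54.9%, and Glycam1 (green) takes at most 0.488% of milk reads, before division by length, in an adult luminal cell but a median of 5.04% in pregnancy cells.

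Presence of each gene was set against the milk share to describe the order of appearance. In pregnancy cells, Csn1s1, Csn2, Csn1s2a and Csn3 were detected in 9, 8, 9 and 7 of 11 cells at 0.01 to 0.1% milk, in 19, 20, 19 and 20 of 20 cells at 0.1 to 1%, and in every cell above. Glycam1 was detected in 5 of 11, 17 of 20, 18 of 19 and 44 of 44 cells over the same bins up to 10% or more. Lalba was detected in 0 of 11, 6 of 20, 15 of 19 and 43 of 44 cells, and Wap in 0 of 11, 6 of 20, 14 of 19 and 43 of 44 cells. Csn1s2b was detected in 0, 2, 3 and 19 cells of these bins. At this depth, the abundant caseins were thus detected at the lowest milk shares, Glycam1 next, Lalba and Wap at higher shares and the rare Csn1s2b last. Milk share went with marker class, by the split described below. Pregnancy cells with basal markers alone had a median share of 0.139%, and none with luminal markers alone was below 0.318%. The order thus runs over cells of different types, and whether it holds within a type was not tested.

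**Figure D3:**
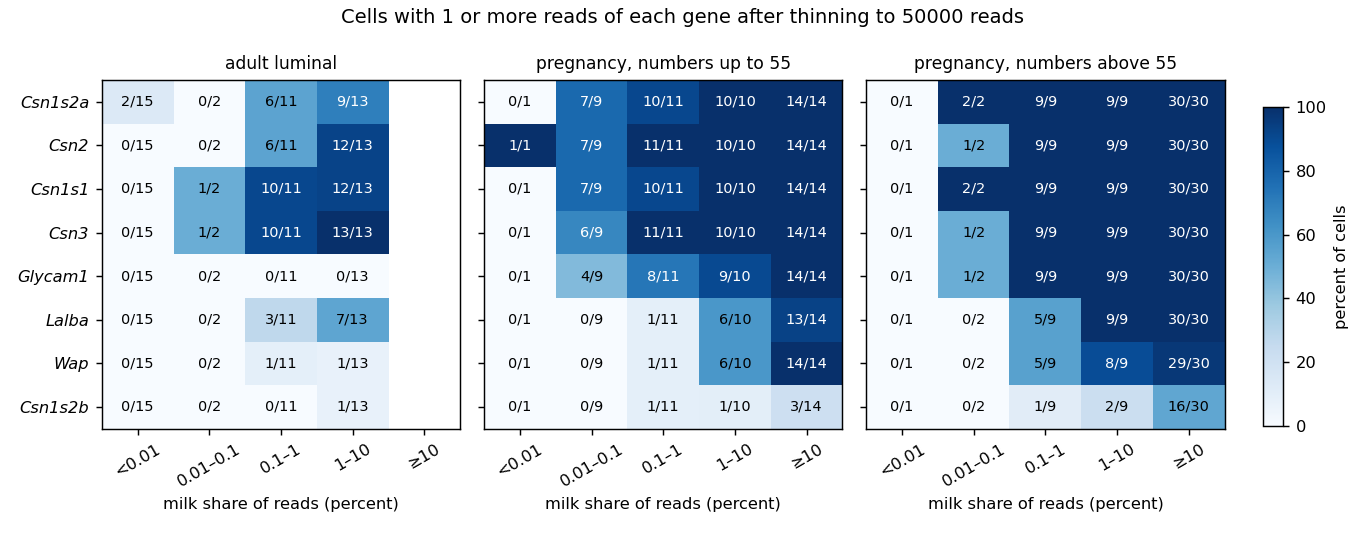
Number of cells with 1 or more reads of each gene after thinning to 50000 reads, over the number of cells in the bin (colour, percent of cells), by milk share of reads, for adult luminal cells and for pregnancy cells numbered up to 55 and above 55. At this depth, the 4 abundant caseins fill from the lowest milk shares in pregnancy, Lalba and Wap from higher ones and the rare Csn1s2b last, over cells of all marker classes. In adult luminal cells the Glycam1 row is 0 throughout.

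The same order was found when each gene was set against the other 7. The share of the other 7 genes that best divided pregnancy cells with and without a gene was 0.00400% of reads for Csn1s2a, 0.00700% for Csn2, 0.00800% for Csn1s1, 0.0440% for Csn3, 0.0490% for Glycam1, 0.541% for Lalba, 1.25% for Wap and 26.6% for Csn1s2b. Cells on the wrong side of that share were 3 or 4 of 96 for the abundant caseins, 9 or 10 for Glycam1, Lalba and Wap, and 21 for Csn1s2b. These numbers cannot exceed the number of cells with or without the gene, and only 4 to 6 cells lacked each abundant casein, so they rank the genes no further. Of the 33 cells without Wap and the 32 without Lalba, most lay below the dividing share. The first 5 genes appeared before both Lalba and Wap under all 5 alternatives, which included both ranges, but the 4 abundant caseins changed places among themselves, and above 55 Glycam1 (0.00800%) came before Csn2 (0.0270%) and Csn3 (0.0570%). Lalba and Wap were not ordered either. Wap appeared at 4.32% and Lalba at 0.959% in cells numbered up to 55, and at 0.335 and 0.344% in cells above 55. In 83 of 96 pregnancy cells, the detected genes were the first members of the list Csn2, Csn1s1, Csn1s2a, Csn3, Glycam1, Lalba, Wap and Csn1s2b, with none skipped. This held in 60 of the 73 cells with 1 to 7 members, and in 18 of the 28 such adult luminal cells under their own order (Csn3, Csn1s1, Csn2, Csn1s2a, Lalba, Wap, Csn1s2b, Glycam1). Each order was taken from the same cells.

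Rarer transcripts are detected later at a fixed depth whatever their order, so the reads of each gene were compared with those it would have if every cell carried the median mix of cells at 10% milk or more. Among the 11 pregnancy cells at 0.01 to 0.1% milk, Wap had 0 reads where that mix would give 10.3, and Lalba 1 where it would give 1.97. Among the 20 cells at 0.1 to 1%, Wap had 132 reads against 164, Lalba 54 against 31.2 and Glycam1 998 against 647. Among the 19 cells at 1 to 10%, Wap had 594 against 2081 and Lalba 174 against 397. The Lalba shortfall was not seen within the ranges, where the gene had 69 reads against 51.2 (up to 55) and 105 against 81.2 (above 55) by the mix of the same range. Wap had 341 against 772 and 253 against 379. Over all pregnancy cells, Csn1s2b had 18 reads against 0.869 at 0.1 to 1% and 26 against 11.1 at 1 to 10%. These were held by 3 of 20 and 4 of 19 cells. In summed reads, then, Lalba and Glycam1 were not steadily below that mix at low milk shares. For Csn1s2b the median mix cannot serve as a reference for summed reads. The cells at 10% milk or more themselves held 11294 Csn1s2b reads where it would give 380. Of summed milk reads, Csn1s2b took 0.153% at 0.1 to 1%, 0.0174% at 1 to 10% and 0.220% at 10% or more. Wap reads were held by few cells, and the gene was below its reference in 16 of 20 and 14 of 19 cells of the last 2 bins. Lalba was below it in 13 and 11. Against the mix of the same range, Wap was lower in 10 of 11 and 9 of 10 cells numbered up to 55, and in 6 of 9 and 5 of 9 cells above 55. Lalba was lower in 5 of 10 cells up to 55 at 1 to 10%, and in 3 of 9 and 4 of 9 above 55. In the 11 cells up to 55 at 0.1 to 1%, its reference came to 2.32 reads in all, too few to place single cells. Cells that carried Wap at a low milk share included cell 70, with 40 Wap reads among 332 milk reads (12.0%), and cell 29, with 31 among 776 (3.99%). At the reference mix of their range, 9 cells numbered up to 55 with 0.01 to 0.1% milk would have held 3.07 Wap reads and 0.204 Lalba reads in all, so absence of these genes was not detectable there.

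Adult luminal cells at the same milk share had a different set. Of the 13 adult luminal cells at 1 to 10% milk, Csn2 was detected in 12, Csn3 in 13, Lalba in 7, Wap in 1 and Glycam1 in 0, against 19, 19, 15, 14 and 18 of the 19 pregnancy cells. By range, Lalba was detected in 6 of 10 cells up to 55 and 9 of 9 above, and Wap in 6 of 10 and 8 of 9. Lalba detection in adult luminal cells was thus like that in pregnancy cells up to 55. Depth did not limit the contrast in Wap and Glycam1. The 13 cells held 270263 milk reads, in which Glycam1 would have had 14909 reads at the median mix of pregnancy cells with 10% milk or more and had 0. Wap would have had 3769 and had 160, all in cell 11. Lalba lay on the other side, with 3288 reads against 719, and was above the reference in 7 cells and below it in 6. That reference holds more Wap than pregnancy cells of the same milk share. At 1 to 10% in pregnancy, Wap took 0.398% of summed milk reads (0.267% up to 55 and 1.17% above 55). It took 0.0592% in the adult luminal cells. Glycam1 took 4.76% in pregnancy and 0% in adult luminal cells, and Lalba 0.117 and 1.22%. Cell 38 held 37948 milk reads without a read of Wap, Lalba or Glycam1. Over the 11 cells at 0.1 to 1%, Csn1s2a had 1052 reads against 13759 and was below the reference in all 11, while Csn1s1 had 18973 against 6766 and Csn3 13544 against 4422.

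The ranges of title numbers were compared within a band of milk share, where Lalba was the member without overlap. The comparison was made, after the values were seen, at 10 to 30% milk, where both ranges had cells (14 and 11) with like milk shares (medians 18.8 and 19.8%) and like depth (medians 244771 and 215748 reads). Lalba took 0.00550 to 0.131% of milk reads (median 0.0401%) in cells numbered up to 55 and 0.220 to 1.67% (median 0.571%) above 55, so the ranges did not overlap. The underlying counts were 2 to 88 and 81 to 728 reads. Wap took 0.0413 to 1.98% (median 0.605%) and 0.00319 to 3.89% (median 1.72%), which overlapped. Csn1s1 (medians 16.8 and 20.3%), Csn3 (10.8 and 11.2%), Csn2 (34.4 and 29.4%), Csn1s2a (28.6 and 35.9%) and Glycam1 (6.42 and 3.51%) overlapped as well. Csn1s2b took 0 to 0.0651% and 0 to 0.587% (medians 0 and 0.0163%), which overlapped too. Over all cells of the ranges, the summed level of Csn1s2b differed more than that of Lalba (12.1 and 782 CPM, against 45.4 and 1165 CPM). At 1 to 10% milk, Lalba took 0 to 0.267% (median 0.0349%) in 10 cells and 0.200 to 1.12% (median 0.534%) in 9 cells, with a slight overlap, though there the cells numbered up to 55 had the higher milk shares (medians 6.28 and 1.80%). No cell numbered up to 55 exceeded 30% milk. Whether the ranges stand for animals, days or chips was not tested.

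**Figure D4:**
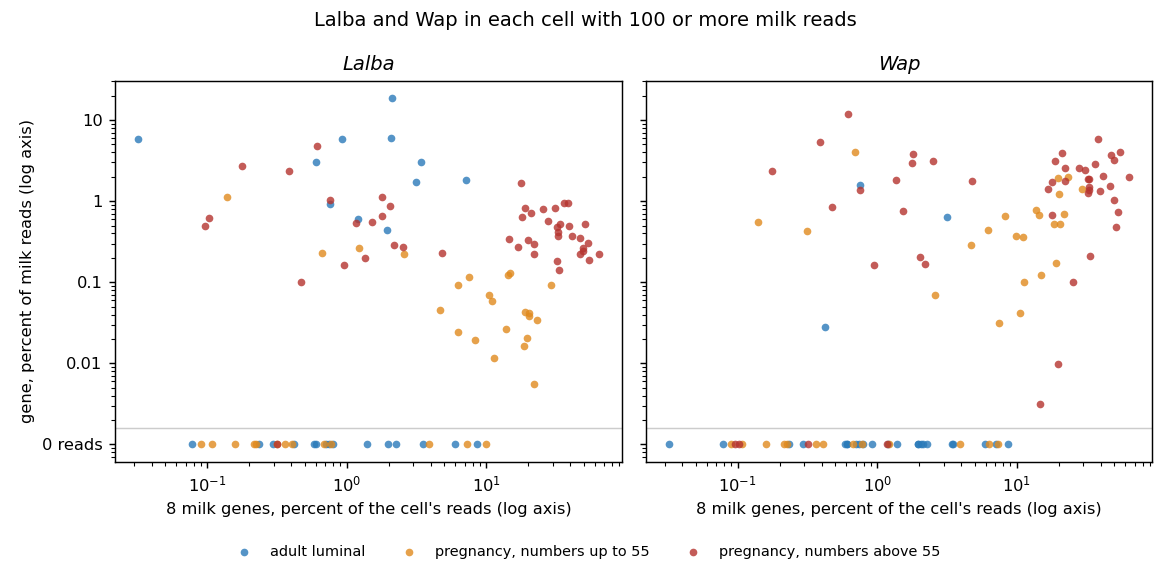
Lalba (left) and Wap (right) as percent of the cell's milk reads against the cell's milk share (both log axes, cells without a read on the bottom line), in cells with 100 or more milk reads. Points are adult luminal cells (blue) and pregnancy cells numbered up to 55 (orange) and above 55 (red). At 10 to 30% milk, Lalba is at 0.00550 to 0.131% in orange cells and at 0.220 to 1.67% in red cells, while Wap overlaps.

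Co-detection of 6 or more members set most pregnancy cells apart from both adult groups, which it did not part from each other. At 50000 reads per cell, 6 or more of the 8 genes were detected in 68 of 96 pregnancy cells (70.8%, 95% interval 60.7 to 79.7), but in only 1 of the 41 cells of the adult luminal group (2.44%, interval 0.0617 to 12.9). No adult basal cell of 85 reached that number, which allows a share of up to 3.53% (3 counts of 85). The share was 51.1% in pregnancy cells numbered up to 55 and 88.2% above 55. The commonest set in pregnancy was all members but Csn1s2b (37 cells), followed by all 8 (22) and by the 4 abundant caseins with Glycam1 (13). In adult luminal cells, 13 had no member, 6 had the 4 abundant caseins and 5 had these with Lalba. In pregnancy, all 63 cells with Wap also held Glycam1, Csn3, Csn2, Csn1s1 and Csn1s2a, genes that 84 to 92 of all 96 cells held, and 59 held Lalba. Wap without Lalba was found in 4 cells and Lalba without Wap in 5. In adult luminal cells, all 10 cells with Lalba also held Csn3, and 9 held Csn1s1, 8 Csn1s2a and 7 Csn2.

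Levels of the abundant caseins moved together in pregnancy. Across the 96 cells, Spearman correlations of levels over non-milk reads were 0.95 to 0.97 among Csn1s1, Csn2, Csn1s2a and Csn3. The correlation of each member with the sum of the other 7 was 0.96 or 0.97 for these genes, 0.92 for Glycam1, 0.89 for Wap, 0.87 for Lalba and 0.50 for Csn1s2b. In the 41 adult luminal cells the same values were 0.75 for Csn1s1, 0.77 for Csn2, 0.62 for Csn1s2a, 0.66 for Csn3, 0.49 for Lalba, 0.15 for Wap, and -0.07 for Csn1s2b and Glycam1, which nearly all these cells lacked. Cells within a group share a preparation and differ in depth, and depth itself went with milk level (0.49 and 0.73 in pregnancy cells numbered up to 55 and above 55), so these are descriptions. The closest adult luminal pairs were Csn1s1 with Csn2 (0.87), Csn2 with Csn1s2a (0.70) and Csn3 with Lalba (0.70), whereas Csn1s1 with Lalba had 0.24.

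The spread of the log2 ratio of 2 genes across cells shows how fixed a proportion was. In the 65 pregnancy cells with 1000 or more milk reads, the SD was 0.82 to 1.00 for pairs among the 4 abundant caseins, 1.61 to 2.00 for Glycam1 with a casein of these, 2.09 to 2.33 for Lalba and 2.50 to 2.84 for Wap. Pairs with Csn1s2b had SDs of 3.48 to 3.87. Within cells numbered above 55, the SD of Lalba with a casein of these was 0.87 to 1.22 (41 cells), against 0.67 to 0.82 for casein pairs. Up to 55 it was 1.72 to 2.15 (24 cells), against 0.73 to 1.03. In the 24 adult luminal cells with 1000 or more milk reads, Csn1s1 with Csn2 had 3.66, Csn1s1 with Csn3 5.71 and Csn2 with Csn3 6.50, and Csn3 with Lalba 3.50. The proportions of caseins thus varied several log2 units more between these adult luminal cells than between these pregnancy cells. The sets were not matched for milk share. No adult luminal cell exceeded 8.62% milk, whereas 44 of all 96 pregnancy cells were at 10% or more. The adult luminal set included cells 15 and 17, which had no read of Csn1s1, Csn2 or Csn1s2a and were under the study's minimum number of genes.

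**Figure D5:**
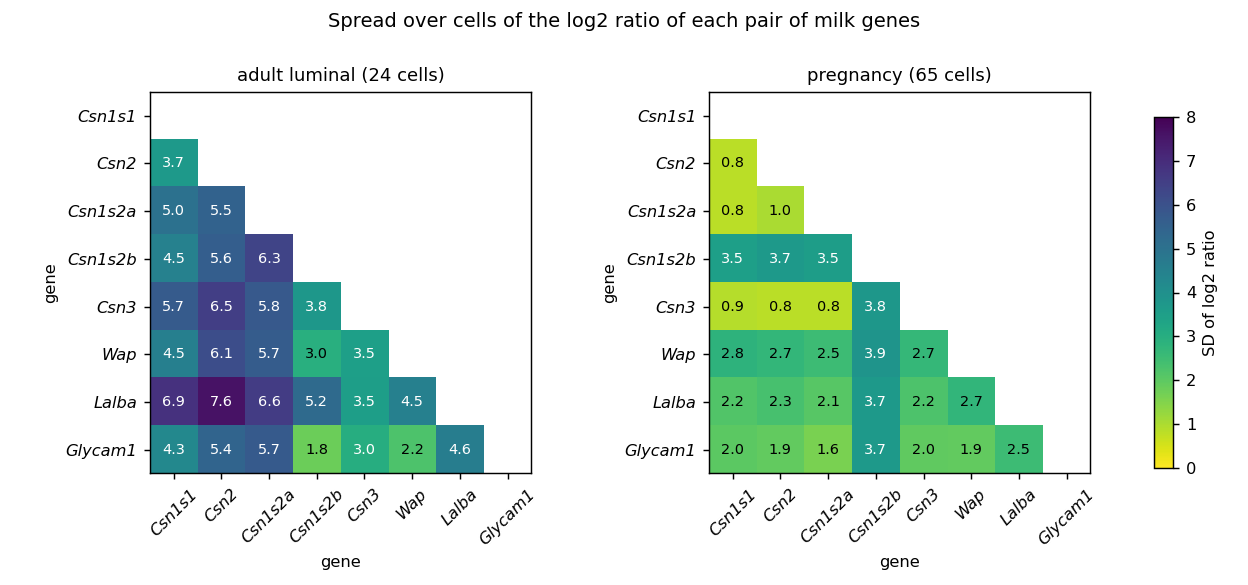
SD over cells of the log2 ratio of reads for each pair of milk genes (number and colour), in 24 adult luminal and 65 pregnancy cells with 1000 or more milk reads, with 0.5 added to each count. Pairs of the 4 abundant caseins have SDs of 0.82 to 1.00 in pregnancy and 3.66 or more in adult luminal cells; for genes that most adult luminal cells lack (Wap, Glycam1, Csn1s2b) the SD mainly shows the spread of the partner.

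Csn1s2b stood apart from its neighbour Csn1s2a. Of the 48 pregnancy cells with 10000 or more milk reads, a set chosen after values were seen, 23 had no Csn1s2b read, 16 had 1 to 99 and 9 had 100 or more, while Csn1s2a had 1594 to 192145 reads in the same cells. Cell 107 held 335428 milk reads with 143685 of Csn1s2a and none of Csn1s2b, and cell 101 held 5857 Csn1s2b reads, more than any other. The 3 richest of these cells held 75.6% of the Csn1s2b reads of the set. All 9 cells with 100 or more reads were numbered above 55. Cells numbered up to 55 reached 49 reads at most. In adult luminal cells, 221 of 223 Csn1s2b reads came from cell 32, in which Csn1s2a had 1 read.

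Genes around the caseins were nearly silent in the same cells. Within the casein stretch, Odam had 49 reads in 2 pregnancy cells, Prr27 had 3 reads in 1 cell, 1700066N21Rik, which overlaps Csn3, had 7 reads in 1 cell and Gm7337 had none in pregnancy. Beyond Csn1s1, Sult1d1, a sulfotransferase gene, had 110 reads in 11 pregnancy cells, Sult1e1 had 4 in 1 cell and Mir3969 none. Beyond Csn3, BC051076 had 14 reads in 3 cells, and Cabs1 and Smr3a had none. The 5 caseins held between 11338 and 2002345 reads in the same 96 cells.

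Milk genes were also read in pregnancy cells that carried basal markers. The split below used 5 or more of 10 markers after thinning and was added after values were seen. The 27 pregnancy cells with basal markers alone had a median milk share of 0.139% (lowest 0.00108%, highest 9.88%), against 18.4% in 28 cells with luminal markers alone, 19.7% in 37 cells with both and 0.107% in 4 cells with neither. The 81 adult basal cells with the same markers had a median of 0 and a highest share of 0.0168%. Of the 27 cells, 25 held Csn2, 24 Csn1s1, 23 Csn1s2a, 23 Csn3, 18 Glycam1, 7 Wap, 7 Lalba and 3 Csn1s2b. In both ranges of title numbers the cells with basal markers alone had the lower shares, with medians of 0.108% (17 cells) and 0.283% (10 cells) beside 11.3 and 22.0% for luminal markers alone. Their mix was set beside that of the cells with luminal markers alone, without matching for milk share or title numbers. Per kilobase, Csn1s2a took medians of 38.5 and 32.2%, Csn2 22.1 and 31.4%, Csn1s1 12.2 and 13.1%, Glycam1 6.76 and 8.93%, Csn3 3.94 and 7.15%, Lalba 0.278 and 0.332%, Csn1s2b 0 and 0, and Wap 0.139 and 2.09%, in 18 and 28 cells. The part of RNA from other cells in these reads was not tested.

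Genes with the pattern most like the summed milk level were sought by rank correlation within each range of title numbers, over 6798 genes read in at least 25% of pregnancy cells. The 8 genes with the highest value of the smaller correlation were Trf (0.89 up to 55 and 0.89 above 55), Fabp3 (0.87 and 0.90), Btn1a1 (0.87 and 0.87), Spp1 (0.84 and 0.92), Wfdc18 (0.89 and 0.83), Slc28a3 (0.82 and 0.83), Muc15 (0.88 and 0.81) and Folr1 (0.80 and 0.88). The median over all these genes was 0.18 and 0.05. Of these, Trf, Btn1a1, Spp1, Wfdc18 and Muc15 also belong to the fixed list of secretion genes described next. Trf encodes transferrin, Fabp3 a fatty acid binding protein, Btn1a1 the milk fat globule protein butyrophilin and Spp1 osteopontin. Slc28a3 encodes a nucleoside transporter, Muc15 a membrane mucin and Folr1 a folate receptor. Their levels in adult luminal cells differed widely, from 3.14 CPM in 2 cells for Fabp3 to 3093 CPM in 30 cells for Wfdc18. In pregnancy cells they were 480 and 12021 CPM. Fabp3 thus resembled Glycam1 and Wap in being scarce in adult luminal cells.

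Other milk and secretion genes, from a fixed list of 14, followed the milk genes in part. Their medians of correlation were 0.78 and 0.78 for the 13 genes read in enough cells, and 6 of 14 had a log2 ratio of 2 or more between pregnancy and adult luminal cells (15.8% of all genes did), none -2 or less. Their median log2 ratio was 1.80. By range, 3 of 14 reached 2 up to 55 and 8 above 55, with medians of 0.80 and 2.13. Ltf, which encodes lactoferrin, was at 6.49 (95% interval 6.35 to 6.63), Spp1 at 2.87 (2.86 to 2.88) and Trf at 2.60 (2.59 to 2.61). Cel, which encodes the bile salt-stimulated lipase of milk, was at 3.59 (3.48 to 3.71), and Pigr, the receptor that carries immunoglobulin A into milk, at 3.15 (3.02 to 3.29). Lpo, which encodes lactoperoxidase, was at 6.65 (4.14 to 11.97) with 1 adult luminal read. Without the cell with most of its adult luminal reads, Ltf was at 7.33, Cel at 4.63 and Pigr at 3.91 on the same scale. Without adult luminal cell 3, Wfdc18 went from 1.96 to 2.11, and without cell 8 Fam20c went from 0.31 to 5.56. In cells numbered up to 55, Ltf (3.37), Pigr (2.32) and Lpo (4.66) passed 2, whereas Spp1 (0.92), Trf (1.64) and Cel (1.43) did not.

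Hormone receptors and STAT5 pathway genes, a fixed list of 16, did not follow the milk level as a list. Over all pregnancy cells, none had a log2 ratio of 2 or more against adult luminal cells, 4 had -2 or less (12.7% of all genes did), and the median was -0.15. By range, 3 had -2 or less in each (11.2 and 23.9% of all genes), without Esr1 up to 55 (-1.64) and without Pgr above 55 (-1.94). Cebpb, a transcription factor gene, was at 2.23 up to 55 and 0.50 above 55. Insr, the insulin receptor gene, was at 1.62, and at 2.22 without adult luminal cell 18. These 4 were Prlr, the prolactin receptor gene, at -4.26 (-4.30 to -4.23), the progesterone receptor gene Pgr at -2.13, the estrogen receptor gene Esr1 at -2.25 (-2.39 to -2.12) and Tnfsf11, which encodes RANKL, at -4.97 (-5.76 to -4.28). Adult luminal cell 23 held 82.3% of the Tnfsf11 reads of its group, and the ratio was -2.52 without it. Without adult luminal cell 42, that of Pgr was -1.96. Prlr had 5730 CPM in adult luminal cells, in all 41 of them, and 298 CPM in pregnancy, in 64 of 96. The median correlation with milk level was 0.15 up to 55 and 0.07 above 55 over 13 genes. Elf5, a transcription factor of alveolar cells, had the highest values of the list, 0.84 and 0.70. Prlr had 0.73 and 0.30, Stat5a 0.28 and 0.04, and Stat5b 0.16 and 0.26. Cish, a target and inhibitor of STAT5 signalling, had 0.09 and 0.49.

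Of the genes of lactose synthesis, B4galt1, the partner of alpha-lactalbumin, was at a log2 ratio of -0.16 (-0.19 to -0.13) between pregnancy and adult luminal cells and was found in 40 of 41 adult luminal and 93 of 96 pregnancy cells. Its correlation with milk level was 0.69 up to 55 and 0.68 above 55. Slc2a1, the glucose transporter gene, was at a log2 ratio of 1.42, and at 3.39 without adult luminal cell 3, which held 74.8% of its adult luminal reads. It had correlations of 0.37 and 0.40, and Ugp2, which makes UDP-glucose, 0.05 and 0.17.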

How the data were processed

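Gene counts of 278 cells, each a library on the Fluidigm C1 platform (Nextera XT, NextSeq), were analysed. The authors mapped read pairs to mm10 with Subread (version 1.4.6 per the labels) and assigned them with featureCounts. Values in the deposited tables are raw counts per Entrez gene, of read pairs (called reads here), with no normalisation. A series table with identical counts was not used. Groups came from the labels.

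Of 27179 IDs, 1904 without a symbol (1.20% of reads), 15 mitochondrial (9.54%) and 125 ribosomal genes (1.72%) were removed. Cells with 50000 or more remaining reads were kept, in place of the study's higher minimums for adult luminal cells (100000 reads and 1500 genes, 39 cells). Cells were thinned without replacement to 50000 reads for detection. Proportions used cells with 100 or more milk reads. Shares have Clopper-Pearson intervals, summed counts Poisson intervals and ratios exact conditional intervals, at 95%. A sum of 0 was set to 3 counts over the group. Ratios used genes with 1 CPM in 3 or more cells. Doublets were not called, since capture sites were inspected by eye before sequencing. Ratios and correlations were tested on simulated counts.

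Named genes were the 8 milk genes, the 8 genes most like the milk level (smaller of the correlations within the ranges of title numbers, genes read in 25% or more of pregnancy cells) and the fixed lists, of which 1 item is not reported here. The members, lists and the division at number 55 were chosen with earlier results of these data known. The comparisons at a given milk share between the number ranges, the split by markers, Csn1s2b in cells rich in milk reads, the count of genes ahead of Lalba and Wap and the ratios by number range were added after the data were seen. Python 3.11.15, scipy 1.17.1, R 4.3.3 and edgeR 4.0.16 (TMM factors only) were used. Alternatives covered denominators, thinning, detection limits, cell minimums, scaling, low filters, single cells left out and title number ranges.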

Additional observations from a re-analysis of the deposited data

Results flagged for a closer look

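Cells under 50000 reads were outside every comparison and also held milk gene reads. In 27 such pregnancy cells, milk genes took 8.81% of summed reads (95% interval 8.72 to 8.90), with a lowest, median and highest cell of 0.00762, 6.26 and 41.5%, and all 27 had at least 1 milk read. Of these, 20 had 100 or more milk reads, in which Csn1s2a took a median of 32.4%, Csn1s1 21.3%, Csn2 18.5% and Csn3 9.06%. In 27 shallow adult basal cells the share was 0.0412% (0.0347 to 0.0486), with 97 of 141 milk reads in 1 cell, and in 2 shallow adult luminal cells it was 0.206% (0.166 to 0.254), all 88 reads in 1 cell.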

How the results depend on the processing

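Depth limits the statements on Wap, Lalba and Csn1s2b in cells with few milk reads, and with 1 sample per group no difference has a replicate check. The milk share of pregnancy reads, 22.8%, was 29.6% over reads outside the milk genes, 14.1% with every cell weighted the same, 19.7% over all assigned reads, 23.9% in cells with 100000 or more reads and 21.4% without the cell with the most milk reads. The adult luminal share, 1.25%, was 1.27, 1.26, 1.10 and 1.13% under the first 3 of these and without that cell. The adult basal share, 0.000680%, was 0.000875% with cells weighted the same and 0.000486% without that cell. The share of pregnancy cells with 6 or more members, 70.8%, was 60.4% when 5 reads counted as detected, 51.1% for numbers up to 55 and 88.2% above 55. Of the genes most like the milk level, 7 of 8 were shared with either alternative ranking. Counts of members with a log2 ratio of 2 or more were 8 of 8 for pregnancy over adult luminal cells under both scalings, without the low filter and without single cells, but 4 for numbers up to 55, where Lalba was at -1.76, and 8 above 55. The counts by number range were not taken without single cells, on which the 4 depended. Counts were 6 or 7 for adult luminal over adult basal cells, 6 without the adult luminal cell with most reads of the gene, which left 2 Csn1s2b reads over 1 and a log2 ratio of 1.55. Fam20c, of the secretion list, went from a log2 ratio of 2.04 to -3.21 for adult luminal over adult basal cells without adult luminal cell 8, which held 97.5% of its reads. At 5 reads, Lalba appeared at 14.0% milk and Wap at 1.25%. No paired analysis was possible because title numbers only name cells and no test was run.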
